A study of Rattus norvegicus with 9 samples.

Results

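Messenger RNA levels were examined for the machinery that imports proteins into mitochondria and shapes the inner membrane into cristae. The genes are 39 subunits and helpers of this machinery, chosen by name. Of these, 38 were present among the 35843 genes of the deposited table, and Immp2l was not found under that name. The filter on low values, described with the tests, was passed by 36 of them in every comparison. Timm8b was listed at 0 in 8 samples and at 0.323 FPKM in MI rat 3, Timm17b was listed at 0 in 8 samples and at 0.117 FPKM in a rat of the treated group, and neither was tested.

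Hearts came from adult male Sprague-Dawley rats at day 28, with 3 samples in each of 3 groups. Rats of group Sham had the operation without ligation and received saline by daily gavage. Rats of group MI had the left anterior descending artery tied off for good and received the same saline. Group MI + DAPA (1st d), written DAPA below, had the same ligation and was gavaged daily, from the first day on, with dapagliflozin (DAPA), an inhibitor of the sodium-glucose cotransporter of the kidney tubule. The RNA came from left ventricle, and the study's molecular work used mainly the tissue bordering the infarct with the scar cut away, taken at the matching place in group Sham. Where it turns to the sequencing, the study speaks of infarct myocardium for the ligated groups, so the exact site of these samples is not settled. Each sample title holds a pair of names while the table holds 1 column per sample, so whether animals were pooled is not known, and the samples are called rats 1 to 3 here.

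Nearly all mitochondrial proteins are encoded in the nucleus, made in the cytosol and passed through the TOM complex of the outer membrane. From there the TIM23 translocase and its Hspa9 motor draw precursors into the matrix, the TIM22 translocase inserts carriers with the help of small TIM chaperones, Chchd4 traps small proteins between the membranes by disulfide bonds, and the SAM complex folds barrel proteins into the outer membrane. In the matrix, presequences are clipped off and the Hspd1 and Hspe1 chaperonin folds the new protein, while the MICOS complex holds the necks of the cristae in place. Cells of all kinds carry these genes, and heart muscle, which is packed with mitochondria, uses them heavily.

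Values are FPKM, fragments scaled by gene length and by the authors' library size, so they compare levels between genes per length. The low values of each gene were whole multiples of 1 read, which gave back between 13597239 and 17210909 reads per rat. The 13 protein genes of the mitochondrial genome took 59.9 to 65.7% of these reads in Sham rats, 6.93 to 18.7% in MI rats and 17.1 to 31.6% in DAPA rats. Only these 13 genes are left out where a scale outside the mitochondrial genome is used below. Reads on all other genes came to 5899666 to 6858645 in group Sham, against 11519732 or more in the ligated groups. The authors' scaling did not follow these totals. It followed size factors taken from the median ratio of each rat's reads to the gene means, at 0.987 to 0.9997 times those factors. When all recovered reads served as the scale instead, the median log2 fold change of all genes moved to 0.92 in MI vs. Sham, -0.21 in DAPA vs. MI and 0.74 in DAPA vs. Sham, so every change below is relative to the bulk of genes. Of 20 cardiomyocyte markers found, none was at 0 in all rats, and their summed level ran from 8065 to 11784 FPKM for Sham, 2625 to 12686 FPKM for MI and 9814 to 20176 FPKM for DAPA rats. MI rat 2 stood apart, with the lowest cardiomyocyte sum and the highest sums of the 9 macrophage markers (3541 FPKM) and of the 5 B and plasma cell markers (3108 FPKM).

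The levels of the 36 genes covered a wide range. Tomm6, a small subunit that steadies the TOM complex, had the highest mean over the 9 rats, 367 FPKM. Next came Tomm7 at 111 FPKM, Tomm20 at 89.1 FPKM, Hspe1 at 87.6 FPKM, Hspd1 at 71.1 FPKM and Timm13 at 69.7 FPKM, and these 5 overlapped one another in at least 1 group, so their order is not firm. The lowest means were those of Timm10b at 2.54 FPKM, Tomm5 at 5.41 FPKM and Tomm40l at 6.43 FPKM. At the depth of these libraries the fewest reads behind any tested value were 16, for Timm10b.

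The first comparison asks what infarction changed in this machinery. Relative to the bulk of genes, Hspa9, Timm23 and Tomm70 rose in group MI against group Sham, and Samm50, Timm13 and Tomm7 fell, the last 3 turning positive when all recovered reads set the scale. Mean FPKM in group MI was 1.94 and 1.90 times that of group Sham for Hspa9 and Timm23, and 0.509 and 0.507 times for Samm50 and Tomm7. The changes were tested with limma on log2(FPKM + 1) over the 13485 genes with at least 1 FPKM in at least 3 of the 6 rats, and called at a Benjamini-Hochberg adjusted p under 0.05. The 3 genes that rose were 8.33% of the 36 tested, below the 19.5% of all genes that rose, and the 3 that fell were again 8.33%, below the 19.5% of all genes that fell. The median log2 fold change of the 36 was -0.03, beside -0.01 for all genes.

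In 7 of the 36 genes (19.4%) all MI rats lay above all Sham rats, beside 27.1% of all genes, and in 5 (13.9%) they lay below, beside 27.5% of all genes. With each rat left out in turn, Hspa9 and Timm23 remained called in all 6 fits. Samm50 was lost without Sham rat 3 (adjusted p = 0.0513). Tomm70 was lost in every one of the 6 fits (adjusted p = 0.055 to 0.111), Timm13 in all but the fit without MI rat 3 (0.0485 to 0.111 over the 6), and Tomm7 in all but the fit without Sham rat 3 (0.00878 to 0.133). Scaled to all recovered reads, the log2 fold changes were 0.09 for Samm50, 0.21 for Tomm7 and 0.61 for Timm13, each under the 0.92 of the median gene on that scale. In the same comparison all 9 macrophage markers and 10 of 11 fibroblast markers rose, all 6 endothelial markers tested fell, 1 of 20 cardiomyocyte markers rose and 4 fell, and all 13 protein genes of the mitochondrial genome fell. Their part in these changes was not tested, and in tissue RNA fewer cells of a type and less RNA per cell cannot be told apart.

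The next comparison asks how the infarcted ventricle differed with DAPA. No gene of the 36 passed the adjusted threshold in DAPA vs. MI, and the smallest adjusted p among them was 0.558. Nor did any gene of the whole table, so the background was 0% in both directions, of 13251 tested. At an unadjusted limma p under 0.05, 10 of the 36 (27.8%) were higher and 0 were lower, beside 4.59% of all genes higher and 3.9% lower. The 10 were Tomm7, Timm10, Timm17a, Timm44, Dnajc19, Hspe1, Immp1l, Chchd3, Samm50 and Mtx2. A weighted fit of the recovered reads (limma voom) gave 9 higher and 0 lower at that threshold, beside 4.10% and 4.09% of all genes. After adjustment that fit gave 0, among the 36 and in the whole table. The study's rule adds a log2 fold change over 1, and the study applied it to DESeq2 results. Applied here to the limma fit, it called Timm10 alone, 1 of 36 beside 0.951% of all genes.

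The sign was shared more widely than the calls. The log2 fold change was positive in 34 of the 36 genes, with a median of 0.41, beside -0.02 for all genes, of which 47.2% were positive. The exceptions were Tomm34 at -0.02 and Tomm70 at -0.07. All DAPA rats lay above all MI rats in 7 genes (19.4%), namely Tomm7, Tomm40l, Timm10b, Timm17a, Timm44, Dnajc19 and Hspe1, beside 6.63% of all genes, and in 0 genes did they lie below, beside 7.16% of all genes.

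The count of 10 moved with single rats. It was 2 without DAPA rat 1 (2.21% of all genes were higher in that fit), 3 without DAPA rat 2 (1.98%), 3 without MI rat 2 (1.67%) and 4 without MI rat 1 (2.67%). It was 17 without MI rat 3 (7.41% of all genes) or without DAPA rat 3 (8.24%). None of these 6 fits gave a lower gene or an adjusted call among the 36, and only the fit without MI rat 1 gave adjusted calls in the whole table, 2 genes. In the same comparison all 20 cardiomyocyte markers had a positive log2 fold change, with a median of 1.19, and all 13 protein genes of the mitochondrial genome did, with a median of 1.17. The 11 fibroblast markers and the 9 macrophage markers were all negative, with medians of -0.54 and -0.82. So were the T cell (7 tested, median -1.31), erythroid (4, -2.80) and B and plasma cell markers (2, -3.67). The 6 endothelial markers tested were all positive, with a median of 0.36, as was the 1 adipocyte marker tested, at 1.47. Of 5 smooth muscle markers 3 were positive and 2 negative, with a median of 0.04. Their part in the result was not tested.

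The last comparison asks what still set the treated ventricle apart from the sham-operated one. Against group Sham, 8 of the 36 genes rose in group DAPA and 0 fell. They were Timm23, Hspa9, Grpel1, Mtx2, Apoo, Hspd1, Timm22 and Tomm40. They made up 22.2% of the 36, beside 14.5% of all 13359 genes that rose, and 14.1% of all genes fell. The median log2 fold change was 0.43, beside 0.01 for all genes, and the group DAPA rats are the same as in the comparison with group MI, so these are not separate evidence. Among the 6 genes below 0 (Tomm6, Tomm7, Timm13, Pmpca, Samm50 and Mtx1), none passed, and at an unadjusted p under 0.05 there were 14 higher and 0 lower genes, beside 21.1% and 20.4% of all genes. By limma voom there were 11 higher and 1 lower, beside 17.6% and 24.0% of all genes.

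All rats of group DAPA lay above all Sham rats in 16 of the 36 genes (44.4%), beside 23.2% of all genes, and below them in 1, Mtx1 (2.78%), beside 23.3% of all genes. With each rat left out in turn, Timm23, Hspa9, Grpel1 and Mtx2 remained called in all 6 fits. Hspd1 was lost in 4 of them (without DAPA rat 1 or 2, or Sham rat 1 or 2), with an adjusted p of up to 0.0868. The count of 8 became 4 without DAPA rat 1 (6.72% of all genes rose in that fit) or Sham rat 2 (10.55%), 5 without DAPA rat 2 (11.4%) or Sham rat 1 (12.7%), 6 without Sham rat 3 (9.18%) and 13 without DAPA rat 3 (9.69%). Tomm40 and Apoo were called only without DAPA rat 3 and Timm22 only without Sham rat 1, with an adjusted p of up to 0.141, 0.107 and 0.125. Of the cardiomyocyte markers, 11 of 20 rose and 1 fell in this comparison, all 9 macrophage markers and 10 of 11 fibroblast markers rose, and 5 of 6 endothelial markers fell. All 13 protein genes of the mitochondrial genome were negative, with a median of -2.13, and 9 of them fell. Their part in these rises was not tested.

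**Figure D1:**
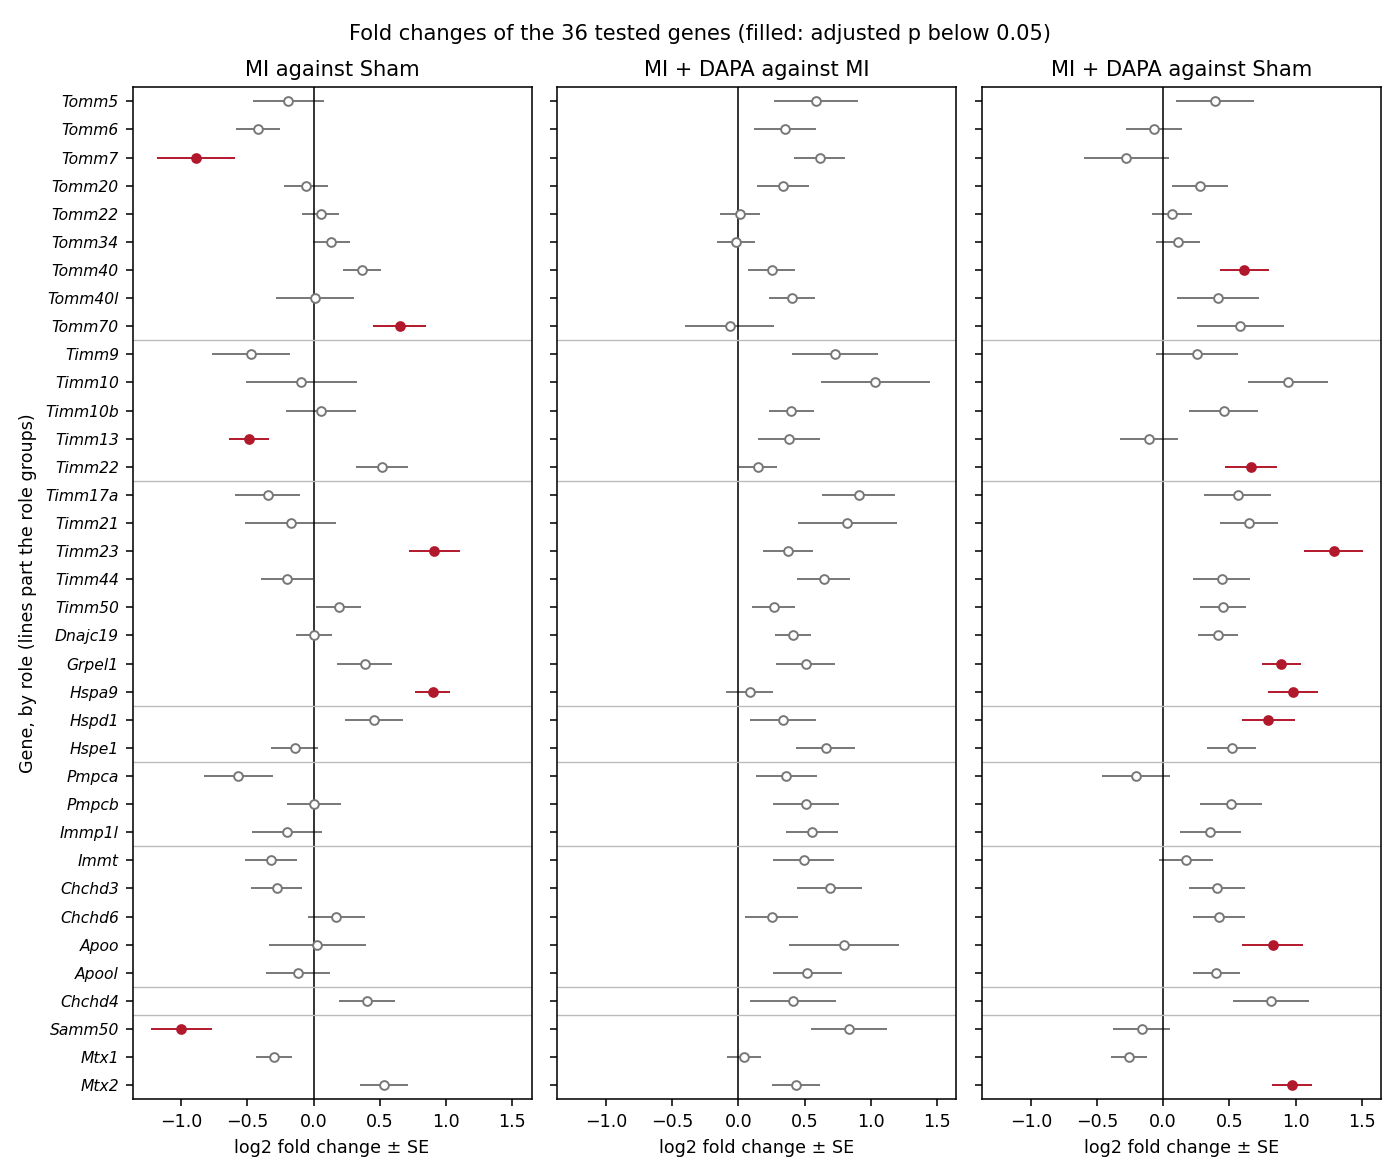
Log2 fold changes (x axis, on log2(FPKM + 1), bars ± SE) of the 36 tested genes (y axis, by role) in MI vs. Sham, DAPA vs. MI and DAPA vs. Sham. Filled points passed an adjusted p of 0.05: 6 in the left panel, 0 in the middle one, where 34 of 36 lie right of the 0 line, and 8 in the right one.

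Upstream sequence was searched for motifs in every member with a promoter window. Hspd1 and Hspe1 are read in opposite directions from starts 290 bases apart and share a promoter region. RefSeq gave the 250 bases before an annotated start for 37 of the 39 genes (38 windows, GRCr8 build, a build that need not be the authors'). Motifs were searched on both strands in these windows and in all 33469 windows of the table. The NRF1 site, spelled GCGC, any base, TGCGC, was in 5 member windows (13.2%, beside 3.75% of all), namely those of Chchd4, Grpel1, Timm21, Tomm20 and Tomm7. CCGGAAGT, the site of the ETS factor GABPA, was in 8 (21.1%, beside 3.1%), those of Chchd3, Mtx2, Pmpcb, Timm10, Timm10b, Timm23, Tomm20 and Tomm70. A heat shock element, spelled TTC, any 2 bases, GAA, any 2 bases, TTC, was in 2 (5.26%, beside 0.663%), the windows of Hspd1 and Hspe1, which share 211 bases. The E-box CACGTG was in 2 (5.26%, beside 5.59%). Member windows had a median GC content of 56.6%, beside 51.2% of all windows, and a match is a description of letters, not of binding. Only windows with a match were considered for printing, and those of Hspa9 and Samm50 held none of these strings. Shown are the region that the chaperonin genes share and windows of a gene that rose in both ligated groups (Timm23), a gene that rose in DAPA vs. Sham (Mtx2) and a gene that fell in MI vs. Sham on the authors' scale (Tomm7). Matches are in capitals, each sequence runs 5′ to 3′ on the gene's strand, and the Mtx2 and Tomm7 stretches lie outside annotated gene spans. For Hspd1 and Timm23 only 30 bases around the match are shown, since the Hspd1 window lies wholly within a RefSeq span of Hspd1 and all but 14 bases of the Timm23 window lie within spans of Timm23 or Parg. Distances for Hspd1 count from the annotated start used, not from the edge of that span.
Hspd1 (chr9:64084256-64084285, minus strand, overlapping heat shock elements starting 242 and 237 bases before the gene): ggggccTTCCGGAAGGTTCTAGAAccgagc
Timm23 (chr16:7442689-7442718, minus strand, GABPA site on the other strand): tcgcgcttccgACTTCCGGgccgcacacag
Mtx2 (chr3:80137347-80137555, plus strand, GABPA site): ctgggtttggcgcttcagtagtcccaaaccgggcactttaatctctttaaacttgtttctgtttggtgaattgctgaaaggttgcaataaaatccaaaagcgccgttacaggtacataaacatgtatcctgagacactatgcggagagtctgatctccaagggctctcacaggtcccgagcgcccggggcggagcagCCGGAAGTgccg
Tomm7 (chr4:12197253-12197502, plus strand, NRF1 site): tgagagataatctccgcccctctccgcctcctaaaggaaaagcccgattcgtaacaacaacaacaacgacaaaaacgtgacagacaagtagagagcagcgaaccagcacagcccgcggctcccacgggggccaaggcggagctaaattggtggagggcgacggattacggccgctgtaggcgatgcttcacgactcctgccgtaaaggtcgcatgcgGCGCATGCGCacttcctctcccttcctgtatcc

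The TOM complex is the entry gate. Tomm70, the receptor that docks carrier precursors brought by cytosolic chaperones, was at 6.07, 4.63 and 6.68 FPKM in the Sham rats, 8.76, 12.0 and 8.28 FPKM in the MI rats and 11.7, 4.92 and 12.7 FPKM in the DAPA rats. All MI rats lay above all Sham rats, whereas DAPA rat 2 lay within the Sham range and the other two did not. The change in MI vs. Sham was 0.65 ± 0.20 (limma log2 fold change ± SE, adjusted p = 0.0398), and in DAPA vs. Sham it was 0.58 (adjusted p = 0.222). Tomm7, a small subunit that helps assemble the complex and holds Pink1 there, was at 166, 185 and 83.4 FPKM in the Sham rats, 76.8, 69.9 and 73.7 FPKM in the MI rats and 92.7, 144 and 107 FPKM in the DAPA rats. The MI rats were close together and below all others, Sham rat 3 was far below its group, and every DAPA rat lay above every MI rat. The MI change was -0.89 ± 0.29 (limma log2 fold change ± SE, adjusted p = 0.0485), and the DAPA vs. MI difference was 0.61 (unadjusted p = 0.0156).

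Tomm6 was at 382, 415 and 417 FPKM in the Sham rats, 317, 257 and 337 FPKM in the MI rats and 468, 405 and 301 FPKM in the DAPA rats. The MI rats lay below the Sham rats without overlap, at -0.42 (adjusted p = 0.0799), and the DAPA rats spanned both groups. Tomm20, the receptor for presequences, was at 84.7, 70.6 and 96.8 FPKM in the Sham rats, 88.7, 71.0 and 81.4 FPKM in the MI rats and 119, 110 and 79.0 FPKM in the DAPA rats. Its groups overlapped in every comparison, with log2 fold changes of -0.06 in MI vs. Sham and 0.34 in DAPA vs. MI.

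Turning to the remaining TOM genes, Tomm22, the central receptor, was at 52.0, 47.6 and 50.1 FPKM in the Sham rats, 51.2, 46.6 and 57.9 FPKM in the MI rats and 58.4, 52.2 and 46.6 FPKM in the DAPA rats. Tomm34, a cytosolic cochaperone of precursors, was at 9.43, 8.25 and 8.28 FPKM in the Sham rats, 9.23, 10.3 and 9.22 FPKM in the MI rats and 9.82, 8.0 and 10.6 FPKM in the DAPA rats. The groups overlapped in both genes, with no log2 fold change above 0.13 in size. Tomm40, the channel itself, had 25.2 ± 2.39 FPKM for Sham, 32.6 ± 3.12 FPKM for MI and 39.4 ± 7.77 FPKM for DAPA rats (mean ± SD, n = 3 each), a rise of 0.61 ± 0.18 (limma log2 fold change ± SE, adjusted p = 0.0418) in DAPA vs. Sham. Its MI value was 0.36 (adjusted p = 0.0854). The paralogue Tomm40l and the small subunit Tomm5 passed in no comparison, at 0.40 and 0.58 in DAPA vs. MI.

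**Figure D2:**
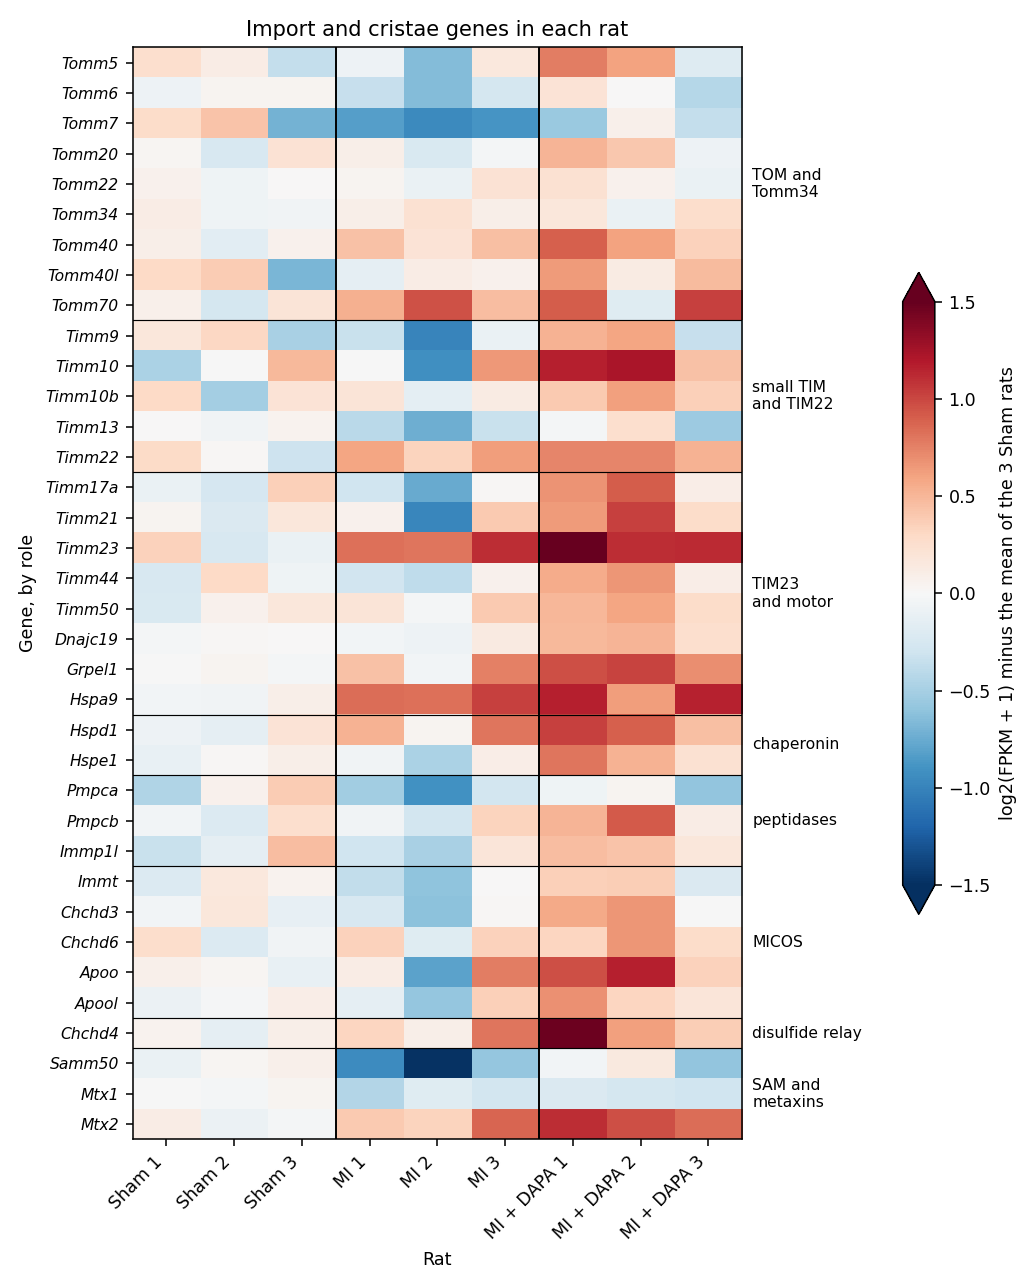
Log2(FPKM + 1) of each of the 36 genes (rows, by role) in each of the 9 rats (columns), as the difference from the mean of the 3 Sham rats, red above and blue below, with colours ending at 1.5 on either side. MI rat 2 is bluest, lowest of all 9 rats in 21 genes, and DAPA rats 1 and 2 are reddest, highest of all 9 in 14 and 16 genes.

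Beyond the outer membrane, small TIM chaperones guard hydrophobic carriers on their way to the TIM22 translocase. Timm13, which pairs with Timm8 proteins, was at 78.6, 75.5 and 81.3 FPKM in the Sham rats, 58.9, 46.8 and 62.2 FPKM in the MI rats and 76.9, 93.9 and 53.3 FPKM in the DAPA rats. All MI rats lay below all Sham rats, and DAPA rat 3 lay within the MI range while the other two reached the Sham level or beyond. The MI change was -0.49 ± 0.15 (limma log2 fold change ± SE, adjusted p = 0.0390). Timm10, which with Timm9 forms the main chaperone of the carriers, was at 15.1, 21.4 and 30.4 FPKM in the Sham rats, 21.4, 10.8 and 34.2 FPKM in the MI rats and 49.2, 51.4 and 29.4 FPKM in the DAPA rats. MI rat 3 exceeded DAPA rat 3, so the groups overlapped, and the difference was 1.03 in DAPA vs. MI (unadjusted p = 0.0419) and 0.94 (adjusted p = 0.0518) in DAPA vs. Sham.

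The remaining genes of this branch were measured at lower levels. Timm22, the channel of the carrier translocase, had 7.48 ± 1.75 FPKM for Sham, 11.0 ± 1.31 FPKM for MI and 12.3 ± 1.1 FPKM for DAPA rats (mean ± SD, n = 3 each). It rose in DAPA vs. Sham, at 0.66 ± 0.20 (limma log2 fold change ± SE, adjusted p = 0.0401), and missed the threshold in MI vs. Sham, at 0.52 (adjusted p = 0.0753). Timm9 and Timm10b passed in no comparison, at 0.73 and 0.40 in DAPA vs. MI.

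In the TIM23 translocase and its motor, Hspa9 and Timm23 kept their calls in every fit with a rat left out. Hspa9, the mitochondrial Hsp70 that pulls precursors through and also folds them, was at 10.6, 10.6 and 11.7 FPKM in the Sham rats, 20.4, 20.2 and 23.3 FPKM in the MI rats and 25.7, 17.5 and 25.6 FPKM in the DAPA rats. The MI and the DAPA rats lay above all Sham rats, and the ligated groups overlapped. The rise was 0.90 ± 0.14 (limma log2 fold change ± SE, adjusted p = 0.00331) in MI vs. Sham and 0.98 ± 0.19 (limma log2 fold change ± SE, adjusted p = 0.00950) in DAPA vs. Sham, and 0.08 in DAPA vs. MI. Timm23, the channel subunit, was at 25.1, 16.3 and 18.1 FPKM in the Sham rats, 35.3, 34.7 and 43.3 FPKM in the MI rats and 62.5, 43.1 and 43.6 FPKM in the DAPA rats. Again every ligated rat exceeded every Sham rat, and DAPA rat 1 was highest. Timm23 rose by 0.91 ± 0.19 (limma log2 fold change ± SE, adjusted p = 0.0107) in MI vs. Sham and by 1.29 ± 0.22 (limma log2 fold change ± SE, adjusted p = 0.00690) in DAPA vs. Sham.

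Timm17a, the partner of Timm23 in the channel, was at 55.1, 49.3 and 75.6 FPKM in the Sham rats, 47.7, 34.6 and 59.6 FPKM in the MI rats and 94.6, 112 and 63.5 FPKM in the DAPA rats. MI rats 1 and 2 were the lowest of the 9 and every DAPA rat exceeded every MI rat. The DAPA vs. MI difference was 0.91 (unadjusted p = 0.0139), and the MI value was -0.35 (adjusted p = 0.296). Timm21, which links the translocase to TOM and to the respiratory chain, was at 17.3, 14.2 and 19.0 FPKM in the Sham rats, 17.6, 7.98 and 22.3 FPKM in the MI rats and 26.6, 35.2 and 20.5 FPKM in the DAPA rats. MI rat 2 was far below every other rat, and MI rat 3 lay above DAPA rat 3. The log2 fold change was 0.82 in DAPA vs. MI (unadjusted p = 0.0653) and 0.65 (adjusted p = 0.0636) in DAPA vs. Sham, where the groups did not overlap.

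Among the motor's helpers, Grpel1, which makes Hspa9 release its nucleotide, had 30.01 ± 0.742 FPKM for Sham, 40.5 ± 11.1 FPKM for MI and 56.8 ± 6.68 FPKM for DAPA rats (mean ± SD, n = 3 each). It rose in DAPA vs. Sham at 0.89 ± 0.15 (limma log2 fold change ± SE, adjusted p = 0.00624), while its MI value was 0.39 (adjusted p = 0.183). Timm44, which tethers Hspa9 to the channel, and Dnajc19, a J protein of the inner membrane whose loss causes cardiomyopathy, were higher in DAPA vs. MI without overlap, at 0.64 (unadjusted p = 0.0158) and 0.41 (unadjusted p = 0.0205). Timm50, the receptor of the translocase, had log2 fold changes of 0.19 in MI vs. Sham and 0.26 in DAPA vs. MI.

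Inside the matrix, Hspd1 (Hsp60), the folding chamber, was at 48.4, 46.2 and 58.9 FPKM in the Sham rats, 73.5, 52.5 and 89.9 FPKM in the MI rats and 105, 95.8 and 69.9 FPKM in the DAPA rats. All DAPA rats lay above all Sham rats, and the MI rats spread from the Sham level to that of the DAPA group. It rose in DAPA vs. Sham at 0.79 ± 0.20 (limma log2 fold change ± SE, adjusted p = 0.0230), with 0.46 (adjusted p = 0.137) in MI vs. Sham. Hspe1 (Hsp10), the lid of that chamber and the gene that shares the heat shock element region with Hspd1, was at 72.3, 79.2 and 82.5 FPKM in the Sham rats, 75.2, 55.8 and 83.2 FPKM in the MI rats and 137, 112 and 91.1 FPKM in the DAPA rats. MI and Sham rats overlapped, and every DAPA rat exceeded every rat of the other groups. The log2 fold changes were -0.14 in MI vs. Sham, 0.66 in DAPA vs. MI (unadjusted p = 0.0211) and 0.52 (adjusted p = 0.0748) in DAPA vs. Sham. Copies of both genes exist in mammalian genomes as processed pseudogenes, and how reads shared with such copies were counted is not given in the sources used here.

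**Figure D3:**
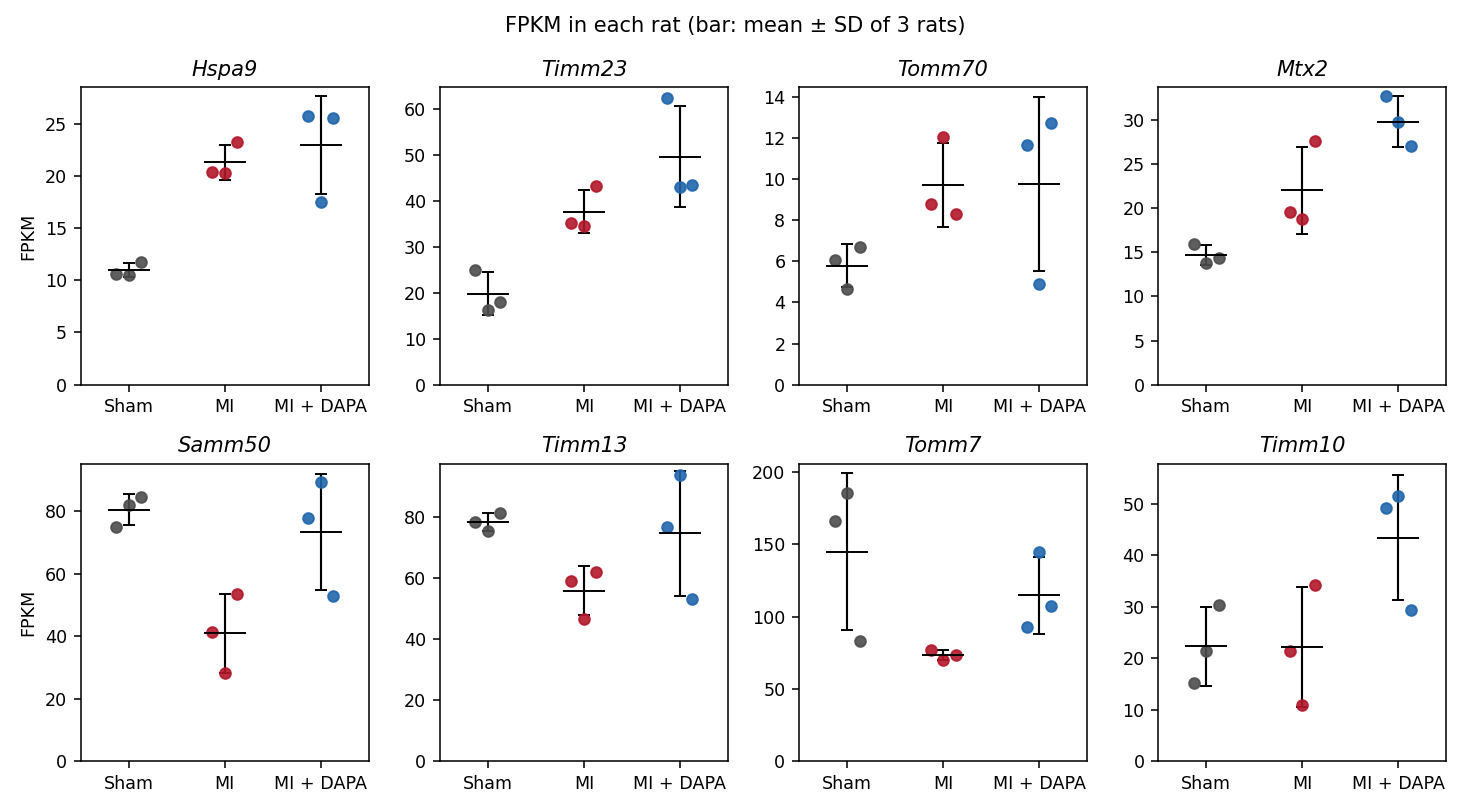
FPKM (y axis, from 0) of 8 genes in each rat (points) of groups Sham, MI and DAPA, with the mean ± SD of 3 rats as bars. Hspa9 and Timm23 are above the Sham rats in every ligated rat, on the authors' scale Samm50 and Timm13 are below them in every MI rat, and Tomm7 of Sham rat 3 lies far from the other Sham rats.

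Among the peptidases, Pmpca, the substrate-gripping subunit of the presequence protease, was at 22.4, 32.3 and 40.6 FPKM in the Sham rats, 21.2, 15.9 and 25.4 FPKM in the MI rats and 29.4, 31.8 and 20.2 FPKM in the DAPA rats. Pmpcb, its catalytic subunit, was at 33.1, 29.4 and 40.7 FPKM in the Sham rats, 32.8, 28.0 and 43.1 FPKM in the MI rats and 49.1, 65.2 and 36.9 FPKM in the DAPA rats. Sham rats spread widely in Pmpca, groups overlapped for both genes, and neither passed in any comparison. Immp1l, an inner membrane peptidase, had 0.56 in DAPA vs. MI (unadjusted p = 0.0278), with overlap between the groups. Chchd4 (Mia40), the oxidase of the disulfide relay, was at 5.55, 4.72 and 5.67 FPKM in the Sham rats, 6.90, 5.70 and 9.95 FPKM in the MI rats and 16.4, 8.63 and 7.13 FPKM in the DAPA rats. Every ligated rat exceeded every Sham rat, MI rat 2 only barely, and DAPA rat 1 was highest. The values missed the threshold at 0.40 (adjusted p = 0.173) in MI vs. Sham and 0.82 (adjusted p = 0.0687) in DAPA vs. Sham.

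The SAM complex works with the metaxins Mtx1 and Mtx2 at the outer membrane. Samm50, the barrel that inserts other barrels and also anchors MICOS to the outer membrane, was at 74.8, 81.9 and 84.5 FPKM in the Sham rats, 41.3, 28.2 and 53.4 FPKM in the MI rats and 77.7, 89.2 and 52.8 FPKM in the DAPA rats. All MI rats lay below all Sham rats with MI rat 2 lowest, and DAPA rat 3 lay within the MI range while its group mates did not. The MI change was -1.0 ± 0.23 (limma log2 fold change ± SE, adjusted p = 0.0144), and the DAPA vs. MI difference was 0.84 (unadjusted p = 0.0232). Mtx1 was at 16.6, 16.3 and 17.1 FPKM in the Sham rats, 12.0, 14.5 and 13.6 FPKM in the MI rats and 14.2, 13.7 and 13.4 FPKM in the DAPA rats. The Sham rats lay above every ligated rat, a difference that missed the threshold at -0.30 (adjusted p = 0.120) in MI vs. Sham and -0.26 (adjusted p = 0.199) in DAPA vs. Sham. Mtx2 was at 16.0, 13.8 and 14.3 FPKM in the Sham rats, 19.6, 18.8 and 27.7 FPKM in the MI rats and 32.8, 29.7 and 27.0 FPKM in the DAPA rats. In this gene every ligated rat exceeded every Sham rat, at 0.53 (adjusted p = 0.0523) in MI vs. Sham, just short of the threshold, and with a rise of 0.97 ± 0.15 (limma log2 fold change ± SE, adjusted p = 0.00484) in DAPA vs. Sham.

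None of the 5 MICOS genes among the members passed in MI vs. Sham, where their log2 fold changes ran from -0.32 (Immt) to 0.17 (Chchd6). All 5 were positive in DAPA vs. MI, from 0.25 (Chchd6) to 0.80 (Apoo). Micos10, a MICOS gene that is not a member, fell in MI vs. Sham at -0.91 (limma, adjusted p = 0.0184) and is described below. Chchd3 (Mic19), which binds Samm50, was at 49.0, 56.9 and 46.1 FPKM in the Sham rats, 42.4, 32.5 and 51.2 FPKM in the MI rats and 75.6, 80.3 and 50.1 FPKM in the DAPA rats. MI rat 2 was lowest and DAPA rats 1 and 2 were highest, while MI rat 3 lay above DAPA rat 3, and the difference was 0.69 (unadjusted p = 0.0263). Chchd6 (Mic25), its relative, was at 7.89, 5.42 and 6.11 FPKM in the Sham rats, 8.4, 5.52 and 8.42 FPKM in the MI rats and 8.26, 10.7 and 7.95 FPKM in the DAPA rats, and passed in no comparison. Apoo (Mic26) had 14.2 ± 0.998 FPKM for Sham, 16.1 ± 8.67 FPKM for MI and 26.8 ± 7.68 FPKM for DAPA rats (mean ± SD, n = 3 each) and rose in DAPA vs. Sham at 0.83 ± 0.23 (limma log2 fold change ± SE, adjusted p = 0.0316). Immt (Mic60), the core of MICOS, and Apool (Mic27) passed in no comparison, at 0.49 and 0.52 in DAPA vs. MI.

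Ratios of partner genes within a rat depend little on how libraries were scaled, the added 1 apart. Of 10 pairs of partners or paralogues listed, 8 had reads for both genes, which gave 24 comparisons over the 3 group contrasts. The groups did not overlap in 10 of the 24. For the levels of single genes, the shares of all genes above and below without overlap were 27.1% and 27.5% in MI vs. Sham. They were 6.63% and 7.16% in DAPA vs. MI, and 23.2% and 23.3% in DAPA vs. Sham. No such share was computed for ratios of gene pairs. With 3 rats against 3 the exact two-sided permutation test cannot go below p = 0.1, which each of the 10 reached, and the smallest value after adjustment over the 24 was 0.24, so none passes.

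Hspe1/Hspd1, the lid over its chamber, was parted in all 3 contrasts. Its log2 ratio was 0.57, 0.76 and 0.48 in the Sham rats, 0.03, 0.09 and -0.11 in the MI rats and 0.38, 0.22 and 0.38 in the DAPA rats. The MI rats were lowest, and the DAPA rats lay between the others without touching either. The group means were 0.60 ± 0.15, 0.00 ± 0.10 and 0.33 ± 0.09 (SD, n = 3 each). Mtx2/Mtx1 was at -0.05, -0.22 and -0.24 in the Sham rats, 0.66, 0.36 and 0.97 in the MI rats and 1.15, 1.06 and 0.96 in the DAPA rats. Both ligated groups lay above Sham, by 0.83 and 1.23 in the means, and they overlapped with each other.

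Pmpcb/Pmpca was likewise above Sham in both ligated groups, by 0.57 in group MI and 0.72 in group DAPA. Tomm70/Tomm20 was above Sham by 0.71 in group MI and overlapped elsewhere. Chchd6/Chchd3 exceeded Sham by 0.45 in group MI and was lower in DAPA rats than in MI rats (difference -0.44), with groups Sham and DAPA overlapping. The ratios Tomm40l/Tomm40, Apool/Apoo and Timm10b/Timm10 overlapped in all 3 contrasts.

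**Figure D4:**
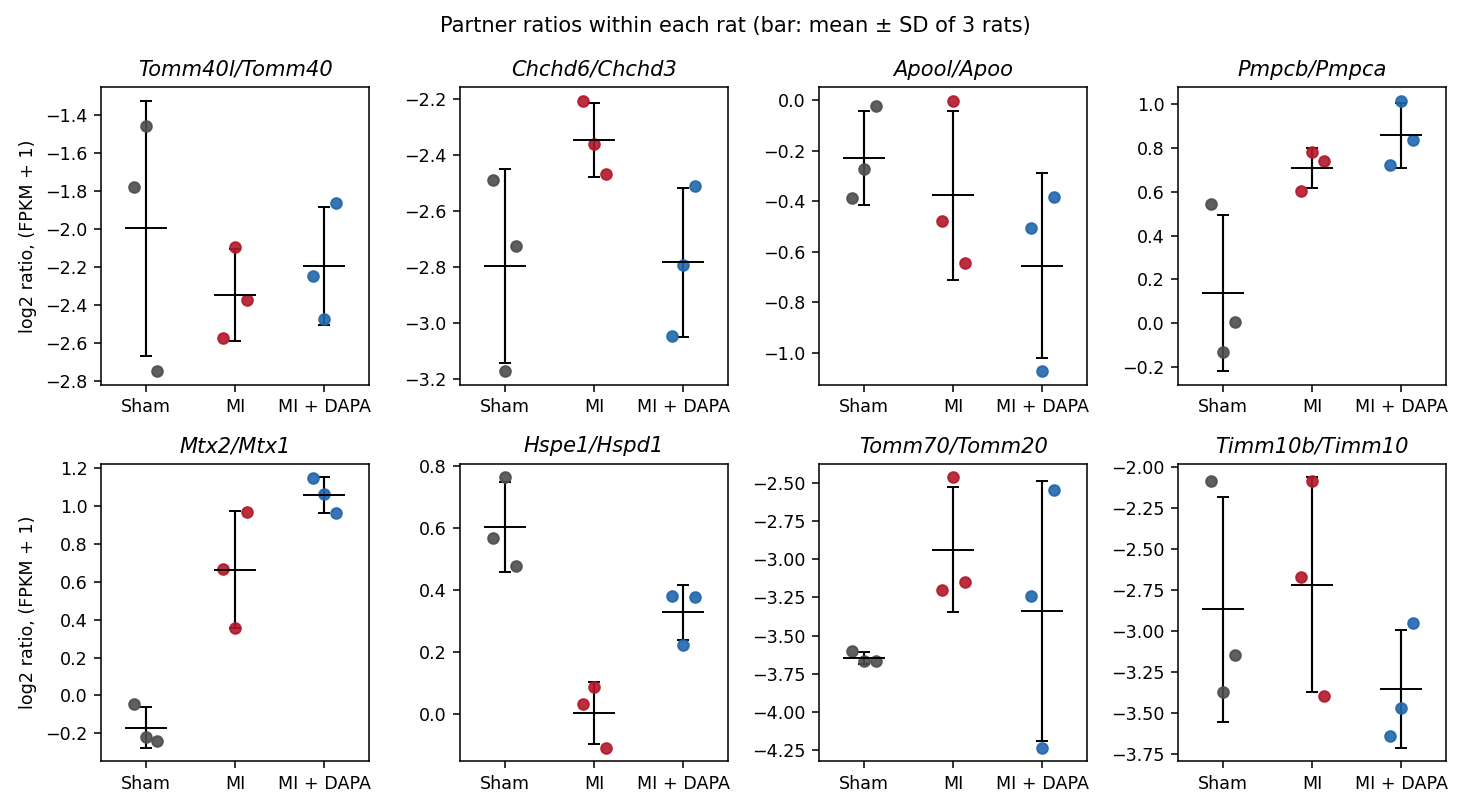
Log2 ratio of (FPKM + 1) for 8 gene pairs (y axis, each panel on its own scale and not from 0) in each rat of groups Sham, MI and DAPA, with the mean ± SD of 3 rats as bars. Hspe1/Hspd1 shows 3 separate groups, Sham highest and MI lowest, and Mtx2/Mtx1 shows both ligated groups above Sham.

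Within the ligated groups the 36 genes differed widely between rats. Their mean log2(FPKM + 1) was 4.54, 4.51 and 4.56 in the Sham rats, 4.54, 4.25 and 4.77 in the MI rats and 5.12, 5.06 and 4.72 in the DAPA rats. The Sham rats were almost equal, whereas the MI rats spread to both sides of them and DAPA rat 3 lay below MI rat 3. MI rat 2 had the lowest value of its group in 32 of the 36 genes and DAPA rat 3 in 30, and MI rat 3 had the highest of its group in 29.

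The cardiomyocyte markers spread in the same rats. Their mean log2(FPKM + 1) was 6.92, 7.36 and 7.44 in the Sham rats, 6.84, 5.64 and 7.74 in the MI rats and 8.0, 8.31 and 7.39 in the DAPA rats. In both ligated groups the rat lowest in the markers, MI rat 2 and DAPA rat 3, was also lowest in the 36 genes, and MI rat 3 was highest in both. The order was not shared throughout. DAPA rat 2 was highest of its group in the markers and DAPA rat 1 in the 36 genes. Sham rat 1 was lowest of its group in the markers and Sham rat 2 in the 36 genes. The import genes minus the markers came to -2.70 ± 0.28 for Sham, -2.22 ± 0.79 for MI and -2.93 ± 0.29 for DAPA rats (SD, n = 3 each), and these ranges overlapped. The part of cardiomyocyte content in the group differences was not tested.

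**Figure D5:**
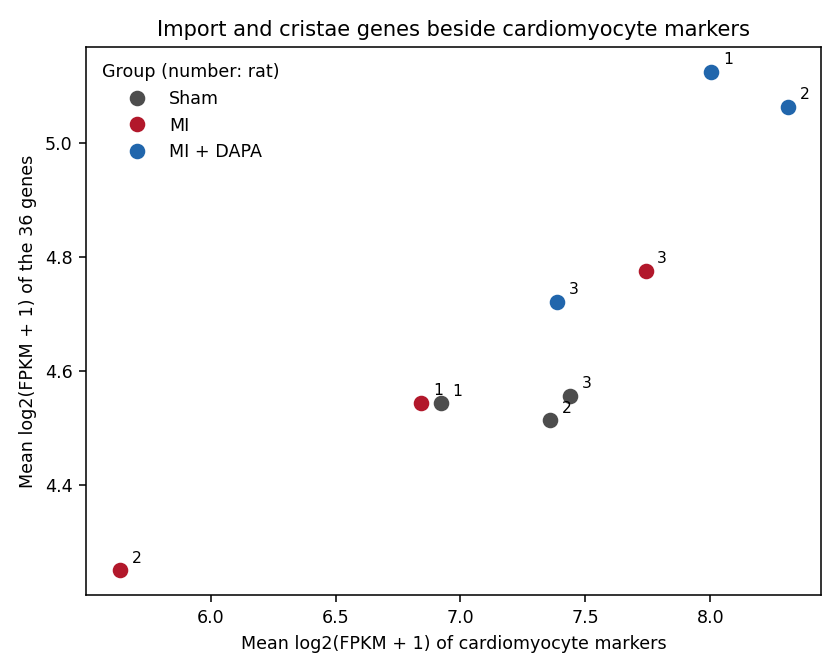
Mean log2(FPKM + 1) of the 36 genes (y axis) against that of 20 cardiomyocyte markers (x axis), 1 point per rat, coloured by group and numbered by rat, on axes that do not start at 0. MI rat 2 is at the lower left (5.64, 4.25), DAPA rats 1 and 2 are at the upper right, and DAPA rat 3 and MI rat 3 lie close together.

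Of 44 other genes of import, folding and cristae, 36 were found. Of 34 tested in MI vs. Sham, 4 rose (11.8%) and 6 fell (17.6%), beside 19.5% of all genes each way, with a median log2 fold change of -0.17. The largest rises were those of Letm1, an inner membrane cation exchanger, at 0.83 ± 0.18 (limma log2 fold change ± SE, adjusted p = 0.0115), and Oma1, the protease that cleaves Opa1 under stress, at 0.73 ± 0.20 (limma log2 fold change ± SE, adjusted p = 0.0242). The largest falls were those of Cox17, a copper chaperone imported by the disulfide relay, at -2.25 ± 0.29 (limma log2 fold change ± SE, adjusted p = 0.00204), and Micos10 (Mic10), the MICOS subunit that bends the crista neck, at -0.91 ± 0.22 (limma log2 fold change ± SE, adjusted p = 0.0184), with a sign that turned to 0.20 when all recovered reads set the scale. Oma1 was lost in 4 of the 6 fits with a rat left out (without MI rat 2 or 3, or Sham rat 2 or 3; adjusted p up to 0.0871) and Micos10 in 2 (without Sham rat 2 or 3; up to 0.0648). Cox17 was at 274, 286 and 278 FPKM in the Sham rats, 55.4, 38.6 and 90.1 FPKM in the MI rats and 117, 163 and 103 FPKM in the DAPA rats. Each MI rat lay below each DAPA rat, and these below each Sham rat.

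In DAPA vs. MI, 0 of 35 such genes passed in limma after adjustment, 6 (17.1%) were higher and 0 lower at an unadjusted p under 0.05, beside 4.59% and 3.9% of all genes, and the median was 0.30. Cox17 had the largest value at 1.1, followed by Timm8a1 at 0.87, and the lowest were Chchd10 at -0.30 and Timm29 at -0.14. In DAPA vs. Sham, 6 of 34 rose (17.6%) and 3 fell (8.82%), beside 14.5% and 14.1% of all genes, with a median of 0.14.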

How the data were processed

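Left ventricle RNA of 9 samples (3 per group) was sequenced. The authors deposited FPKM per gene, and no count table was used here. The submitters' processing notes name HISAT2 2.0.5, featureCounts 1.5.0-p3, StringTie 1.3.3b and DESeq2, and the genome build is not given in the sources used here. Groups came from the sample labels. The members, gene lists, pairs and tests were chosen with earlier results of these data known.

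FPKM as deposited were tested with limma 3.58.1 (R 4.3.3, trended variance) as log2(FPKM + 1), each comparison fitted on its own 6 rats over the genes with at least 1 FPKM in at least 3 of them, with Benjamini-Hochberg adjustment over all genes tested. Fold changes on this scale understate those of low genes. The study's methods call the 3 samples of a group biological replicates. Reads were recovered from the FPKM steps: all 18896 genes measured in 4 or more libraries (100%) had values that were whole multiples of 1 read within 0.02. The search kept the first step size that fitted, so a gene with values in few libraries could fit by accident. For such genes the 100% is no check of the reads. limma voom on these reads called 5142, 0 and 3810 genes in MI vs. Sham, DAPA vs. MI and DAPA vs. Sham, beside 5261, 0 and 3822 in the FPKM fit. Pairs were compared by exact two-sided permutation tests. Alternatives were another pseudocount (0.1), no filter, 1 fit of all 9 rats, a replicate block, a single prior variance, 3 other scalings, limma voom on recovered reads, and each rat left out.

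Members described rat by rat were the highest by mean FPKM in each role group, the 4 with the largest and the 4 with the smallest log2 fold change in each comparison, and both genes of a pair that did not overlap in MI vs. Sham or DAPA vs. MI. The other pathway and stress genes were named as the 2 largest changes each way in those comparisons.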

Additional observations from a re-analysis of the deposited data

How the results depend on the processing

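With all recovered reads as the scale, 31 of the 36 genes were higher and 0 lower in MI vs. Sham (median log2 fold change 0.96, all genes 0.92). Of all genes, 66.8% were higher and 3.84% lower there after adjustment. In DAPA vs. Sham 35 were higher and 0 lower (median 1.24, all genes 0.74), beside 54.6% and 3.29% of all genes. On that scale all 36 genes were positive in both comparisons. Values below 0 turned positive in MI vs. Sham for Samm50 (0.0918), Immt (0.76), Tomm20 (1.04), Chchd3 (0.81), Tomm6 (0.69), Timm17a (0.74), Timm13 (0.61), Timm44 (0.86), Mtx1 (0.74), Tomm7 (0.21), Timm10 (0.96), Timm21 (0.86), Hspe1 (0.95), Apool (0.89), Immp1l (0.82), Pmpca (0.50), Tomm5 (0.70), Timm9 (0.56), Micos10 (0.20) and Grpel2 (0.0943). In DAPA vs. Sham they did so for Samm50 (0.71), Tomm6 (0.81), Timm13 (0.77), Pmpca (0.65), Mtx1 (0.57), Tomm7 and Micos10 (0.71). With recovered reads outside the mitochondrial genome as the scale, the same 6 genes were called in MI vs. Sham, and 6 of the 8 in DAPA vs. Sham. The 3 genes lower in MI vs. Sham became 1 with the replicate block, with a single prior variance, when scaled to summed FPKM outside the mitochondrial genome and under the study's rule, and 1 to 2 with a rat left out. Here and below, the study's rule was applied to limma fits, not to DESeq2 results. The 3 higher ones became 0 under the study's rule and 6 (16.7%) at an unadjusted p under 0.05, where 24.5% of all genes were higher, and were 2 to 4 with a rat left out. Tomm70 was also lost with limma voom, with no filter, with all 9 rats in 1 fit and with the block. In DAPA vs. MI, 0 genes became 1 under the study's rule and 10 at an unadjusted p under 0.05 (4.59% of all genes), and stayed at 0 under every other setting. In DAPA vs. Sham, 8 genes became 5 with no filter, 1 under the study's rule and 14 at an unadjusted p under 0.05 (21.1% of all genes), and were 4 to 13 with a rat left out. Pair comparisons without overlap were 10 to 15 with a rat left out. Leaving a rat out can only part groups further, so this count could not fall and is no check of the pairs. The cause of the other moves was not tested.

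Replicate numbers did not pair the rats: deviations of rats with the same number correlated at -0.00, -0.01 and 0.07 in MI vs. Sham, 0.03, -0.32 and -0.26 in DAPA vs. MI and 0.12, 0.20 and -0.01 in DAPA vs. Sham. The replicate block gave 2 higher and 1 lower of the 36 genes in MI vs. Sham, beside 16.5% and 15.7% of all genes. In DAPA vs. MI it gave 0 and 0, beside 0% each way. In DAPA vs. Sham it gave 8 and 0, beside 14.5% and 13.9%. At an unadjusted limma p under 0.05 in DAPA vs. MI it gave 3 higher, beside 1.72% of all genes. Without the block these were 10 and 4.59%. With 3 samples a group, only sizeable changes pass, and 1 rat often decides a call.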

Other observations

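Genes of the stress response and of the cytosolic chaperones were listed beside the import genes. Of 22 tested in MI vs. Sham, 8 rose (36.4%) and 3 fell (13.6%; limma, adjusted p under 0.05), beside 19.5% of all genes each way, with a median log2 fold change of 0.46. Mthfd2, an enzyme of mitochondrial folate metabolism, rose by 1.82 ± 0.41 (limma log2 fold change ± SE, adjusted p = 0.0131), and Hspa5, the main Hsp70 of the endoplasmic reticulum, by 1.5 ± 0.19 (limma log2 fold change ± SE, adjusted p = 0.00193). Ddit3, a transcription factor of the integrated stress response, fell at -1.25 ± 0.31 (limma log2 fold change ± SE, adjusted p = 0.0193), and Fgf21, a stress hormone, at -1.71 ± 0.49 (limma log2 fold change ± SE, adjusted p = 0.0295). Hspa5 was at 70.8, 58.4 and 60.9 FPKM in the Sham rats, 199, 210 and 142 FPKM in the MI rats and 226, 132 and 143 FPKM in the DAPA rats. Every ligated rat exceeded every Sham rat. In DAPA vs. MI, 0 of 21 passed in limma, with 1 higher and 1 lower at an unadjusted p under 0.05 (4.59% and 3.9% of all genes), and the extremes were Ddit3 at 0.87, Trib3 at 0.46, Asns at -0.53 and Phgdh at -1.01. In DAPA vs. Sham, 6 of 21 rose (28.6%) and 2 fell (9.52%), beside 14.5% and 14.1% of all genes. Fgf21 lost its call without MI rat 1 or 2 or Sham rat 2 or 3, and Ddit3 without Sham rat 1 or 2.

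A further value was singled out after the data were seen. Grpel2, the relative of Grpel1 that also serves Hspa9, was at 6.79, 6.66 and 5.03 FPKM in the Sham rats, 3.04, 3.26 and 2.94 FPKM in the MI rats and 2.76, 3.17 and 4.03 FPKM in the DAPA rats. All Sham rats lay above all ligated rats. Grpel2 fell in MI vs. Sham at -0.80 ± 0.17 (limma log2 fold change ± SE, adjusted p = 0.0109) and in DAPA vs. Sham at -0.73 ± 0.20 (limma log2 fold change ± SE, adjusted p = 0.0315), the comparison in which Grpel1 rose. On the scale of all recovered reads the Grpel2 values were 0.09 and -0.01, and the call in DAPA vs. Sham was lost without Sham rat 1 or 2 or DAPA rat 1 or 2 (adjusted p up to 0.112).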
